A study of Arabidopsis thaliana with 39 samples.

Results

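The rosettes of *slim1-cr* were compared between 44 and 37 days after sowing (DAS), an interval of 7 days late in the life of the plant. *SLIM1* (AT1G73730, also *EIL3*) encodes a transcription factor of the EIN3-like family, and *slim1-cr* is a single line in the Col-0 accession in which CRISPR/Cas9 removed part of the gene, the DNA-binding domains included, while its 3′ part remains. The 3 libraries from 44 DAS and the 3 from 37 DAS were chosen by their labels out of the 39 libraries of the series, and all 21040 of 33110 counted genes that passed a filter on low counts were tested. The study profiled this line, Col-0, an empty-vector line and a pair of lines with constitutive *SLIM1* expression, grown with sufficient nutrients under a photoperiod of 16 h. Polyadenylated RNA came from rosettes, and stalks and reproductive tissue were removed about 4 min before freezing. The time of day of each harvest is not given in the sources used here. The study describes its replicates as biological, and no label says which plants were grown or harvested together, so the p-values measure the spread between these libraries. Positive changes are higher at 44 DAS, and log2 fold changes are written log2FC.

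Arabidopsis rosette leaves stop growing and begin to age once the plant has bolted. In the ageing leaf, transcription factors of the NAC and WRKY families turn on proteases, nucleases and autophagy, chlorophyll and chloroplast proteins are taken apart, and nitrogen and sugars leave through the phloem for flowers and seeds. Ethylene, jasmonate, abscisic acid and salicylate promote this program, whereas cytokinin and auxin mostly delay it.

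The deletion was visible in the counts. *SLIM1* had 0.927, 0.669 and 1.08 CPM in the 44 DAS libraries, against 1.38, 1.45 and 2.59 CPM in the 37 DAS libraries (CPM, counts scaled to a common library size with TMM factors), and Col-0 had 19.8, 18.21 and 20.1 CPM at 44 DAS and 21.1, 22.2 and 22.9 CPM at 37 DAS. The transcript left in *slim1-cr* was itself lower at 44 DAS (log2FC −1.01, SE 0.19, adjusted p = 9.4e-05), and without library 3 of 37 DAS its log2FC was −0.66. The 6 libraries held 43.0 to 46.0 M counts. The first principal component held 55% of their variance and separated the days, with the 44 DAS libraries at 59.2, 78 and 18.6 and the 37 DAS libraries at −48.7, −55.7 and −51.4. Library 3 of 44 DAS thus lay nearest to the earlier day. Library 2 of 37 DAS stood apart on the second component, at 60.9 against −31.9 and −44.7 for its replicates. The same library was highest in flower genes: the mean level of 13 flower organ markers, as log2(CPM + 0.5), was 1.33, 0.96 and 1.45 in the 44 DAS libraries, against 0.31, 1.7 and 0.41 in the 37 DAS libraries, and that of 11 pollen and anther markers was 0.79, 1.02 and 1.41 in the 44 DAS libraries, against −0.83, 2.14 and −0.77 in the 37 DAS libraries. *AP3*, which specifies petals and stamens, had 2.00, 1.82 and 3.04 CPM in the 44 DAS libraries, against 0.482, 3.68 and 0.801 CPM in the 37 DAS libraries. One flower marker was lower at 44 DAS and none was higher, and no pollen marker was called in either direction. In bulk libraries, fewer cells of a type and less RNA per cell cannot be told apart. The totals of called genes and the counts of some lists are therefore also given without library 2 of 37 DAS and library 3 of 44 DAS. This choice was made after seeing the data.

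At an adjusted p under 0.05 by edgeR's quasi-likelihood test, 4510 genes (21.4% of those tested) were higher and 4245 (20.2%) were lower at 44 DAS. Without the pair of libraries that stood apart, the counts were 4292 and 4016. Among the called genes, 1444 had a log2FC above 1 and 804 had one below −1, so that large changes were more often toward higher expression. The 3 libraries of each day did not overlap for 3875 of the genes called higher and for 3777 of those called lower, beside 44.5% of all genes tested. The median log2FC of all genes was −0.002. Scaling by library size alone moved this median to −0.153 and turned the split into 3105 genes higher and 6097 lower, so that the balance of the directions depends on the scaling. Leaving out each library in turn gave 3447 to 4809 genes higher and 3256 to 4859 lower. A fit of the 6 libraries alone, in which the spread rests on fewer libraries, called 2671 higher and 2245 lower.

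The genes with the largest changes were taken from called genes that have a symbol, averaged above 1 log2 CPM over the 6 libraries and did not overlap between the days. Scarcer transcripts such as *SAG12* and *CBF3*, which also changed by large factors, are described with their groups. Of the genes so chosen *BT2* had the highest log2FC. It encodes a scaffold protein with BTB and TAZ domains whose expression responds to sugar and nitrate. *BT2* had 319.6, 243 and 137 CPM in the 44 DAS libraries, against 3.92, 7.53 and 3.91 CPM in the 37 DAS libraries (log2FC 5.51, SE 0.73, adjusted p = 7.5e-07). Every 44 DAS library lay far above every 37 DAS library, and the family member *BT5* had 94.97, 111 and 48.9 CPM in the 44 DAS libraries, against 6.37, 5.69 and 5.77 CPM in the 37 DAS libraries (log2FC 3.84, adjusted p = 8.2e-08). *EXL1*, an *EXORDIUM*-like gene known for its induction under carbon starvation, had 34.9, 102 and 28.2 CPM in the 44 DAS libraries, against 2.26, 3.45 and 2.65 CPM in the 37 DAS libraries (log2FC 4.3, adjusted p = 2.8e-07). *HSPRO2*, whose product binds the energy-sensing kinase SnRK1, had 677, 1147 and 293 CPM in the 44 DAS libraries, against 51.3, 51.1 and 43.0 CPM in the 37 DAS libraries (log2FC 3.86, adjusted p = 2.2e-08). These genes were at their lowest 44 DAS level in library 3, and the lack of overlap with the earlier day was a condition of the choice.

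Several of the other top genes belong to stress and jasmonate responses. *NAC055*, a NAC factor of the jasmonate and abscisic acid responses, had 26.4, 39.8 and 9.61 CPM in the 44 DAS libraries, against 1.28, 0.703 and 2.13 CPM in the 37 DAS libraries (log2FC 4.21, adjusted p = 3.3e-07). *CYP94C1*, which inactivates jasmonoyl-isoleucine by oxidation, had 223, 524 and 94.9 CPM in the 44 DAS libraries, against 31.3, 5.11 and 35.2 CPM in the 37 DAS libraries (log2FC 3.56, adjusted p = 0.00035), with library 2 lowest of the earlier day. *DDF1*, a DREB-type AP2 factor, had 13.3, 37.9 and 5.48 CPM in the 44 DAS libraries, against 1.17, 0.207 and 1.85 CPM in the 37 DAS libraries (log2FC 4.14, adjusted p = 3.6e-05). *XTH25*, an enzyme that cuts and rejoins xyloglucan in the cell wall, rose with a log2FC of 4.44, the phosphodiesterase gene *GDPD2* with 4.12, and *TMAC2*, a negative regulator of abscisic acid response, with 3.57.

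Among the genes with the largest decreases, several act in light signaling and the clock. Age and the clock time of the harvest cannot be told apart for them. *BBX18*, a B-box protein that promotes hypocotyl growth, had 2.28, 1.7 and 2.07 CPM in the 44 DAS libraries, against 14.0, 14.1 and 22.1 CPM in the 37 DAS libraries (log2FC −3.05, SE 0.23, adjusted p = 1.2e-10). *HYH*, the close homolog of the light-response factor HY5, had 1.93, 1.63 and 1.25 CPM in the 44 DAS libraries, against 11.4, 10.2 and 11.0 CPM in the 37 DAS libraries (log2FC −2.76, adjusted p = 1.7e-08). *ELF4*, a subunit of the evening complex of the clock, had 1.52, 1.1 and 0.770 CPM in the 44 DAS libraries, against 5.87, 8.001 and 5.74 CPM in the 37 DAS libraries (log2FC −2.53, adjusted p = 1.4e-08). The gap between the days was wide for each of the 3 genes, and separation itself was a condition of the choice. Only for *HYH* were the 37 DAS libraries close together.

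The remaining large decreases came from transport, walls, trichomes and P450 enzymes. The ammonium transporter gene *AMT1;2* had 2.4, 2.51 and 3.32 CPM in the 44 DAS libraries, against 15.3, 7.57 and 21.9 CPM in the 37 DAS libraries (log2FC −2.44, adjusted p = 8.1e-06). *TBL26*, of a family that acetylates wall polysaccharides, had the lowest log2FC of the genes so chosen (−3.44) and a wide spread within the earlier day, at 6.78, 3.85 and 4.36 CPM at 44 DAS and 47.9, 8.93 and 106 CPM at 37 DAS. *GIS*, a zinc finger gene that promotes trichome formation (−2.99), the DREB-type factor *TINY2* (−2.51), the trehalose-phosphate phosphatase gene *TPPE* (−2.42) and the P450 genes *CYP71B26* (−2.54) and *CYP706A6* (−2.4) completed the set of 10. The days did not overlap in any of these genes because the choice required it.

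**Figure D1:**
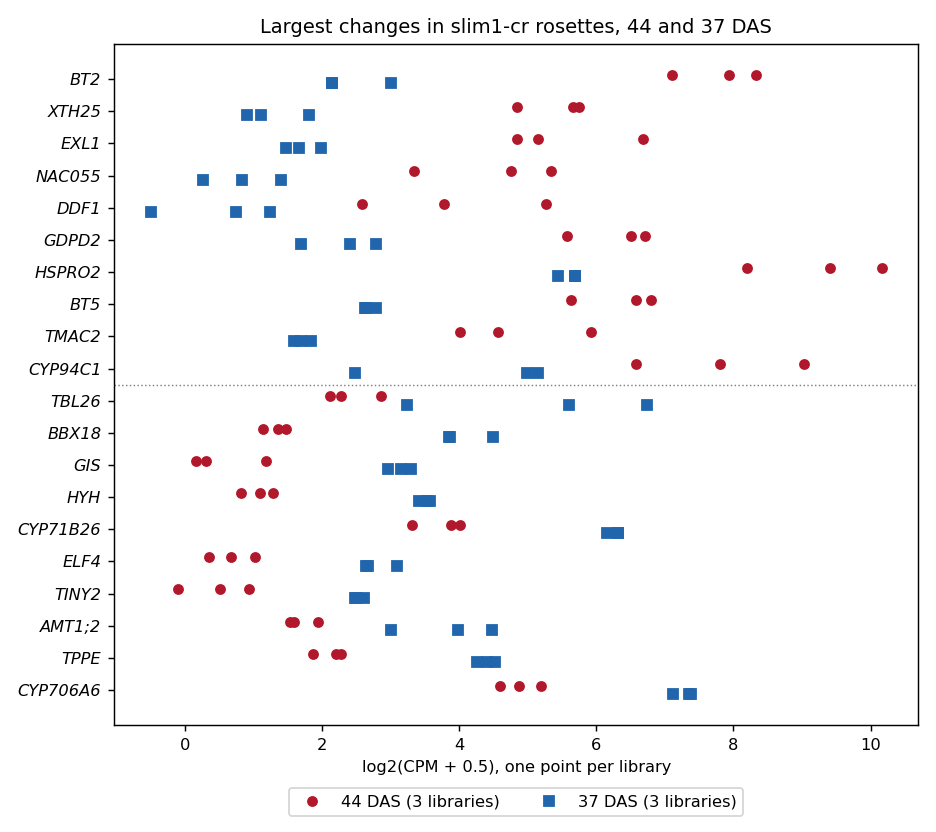
Level of the 10 genes with the highest and the 10 with the lowest log2FC in *slim1-cr*, among called genes with a symbol and a mean above 1 log2 CPM, as log2(CPM + 0.5) on the horizontal axis, 1 point per library, red circles for 44 DAS and blue squares for 37 DAS. No red point overlaps the blue points of its gene because genes with overlapping days were left out of the choice.

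Groups of genes were read against the shares of all tested genes called, 21.4% higher and 20.2% lower, and against the all-gene median of −0.002. The lists were drawn up with earlier results of these data known. They therefore describe where the changes fell and are no separate evidence for them. For the 41 lists plotted, counts that moved by more than 1.5 times when 1 library was left out are given with that library.

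**Figure D2:**
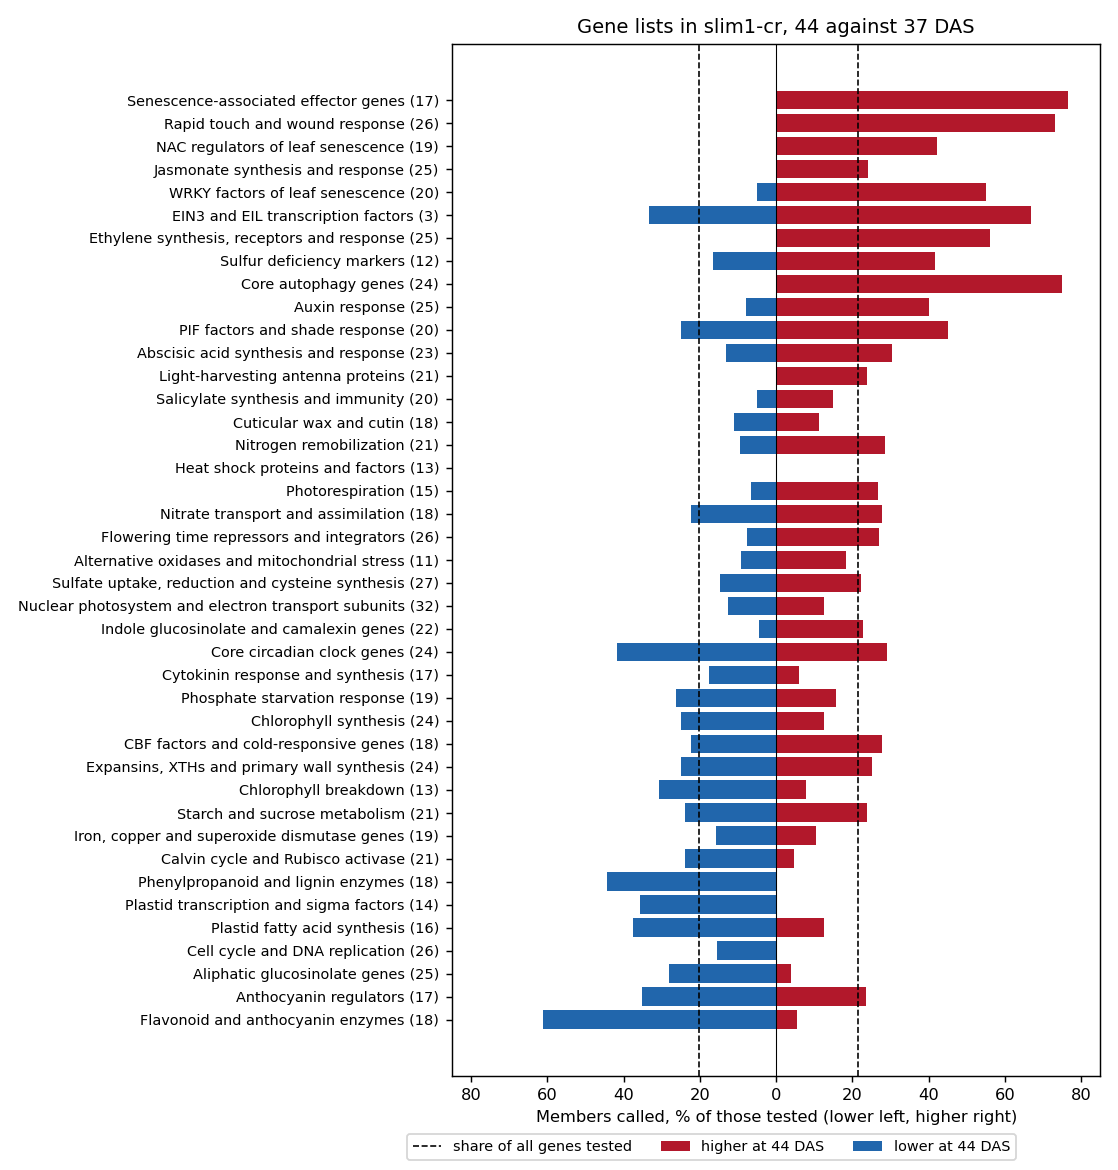
Share of the tested members of each of 41 gene lists called higher at 44 DAS (red, right) or lower (blue, left) in *slim1-cr*, in percent, with the number tested after each name and lists ordered by median log2FC. Dashed lines mark the shares of all genes tested, 21.4% higher and 20.2% lower. The senescence effector, touch and autophagy bars reach farthest to the right, and the flavonoid enzyme bar farthest to the left.

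Genes of the senescence program were higher at 44 DAS. Of 17 senescence-associated effector genes 13 rose and none fell (median log2FC 1.42). Of 19 NAC regulators of leaf senescence 8 rose and none fell (0.95), and of 20 WRKY factors 11 rose and 1 fell (0.81). Without library 2 of 44 DAS these 3 medians were 0.95, 0.50 and 0.48. *ORE1*, a NAC factor of the ethylene branch of leaf senescence, had 19.0, 8.73 and 10.4 CPM in the 44 DAS libraries, against 1.34, 2.07 and 1.85 CPM in the 37 DAS libraries (log2FC 2.85, SE 0.37, adjusted p = 4.8e-07). Its relative *ORS1* had 12.8, 8.13 and 8.32 CPM in the 44 DAS libraries, against 1.89, 1.96 and 2.88 CPM in the 37 DAS libraries (log2FC 2.12, adjusted p = 8.6e-07). *NAP*, a NAC factor that drives senescence and abscisic acid synthesis, had 20.1, 12.6 and 11.4 CPM in the 44 DAS libraries, against 3.19, 4.59 and 3.96 CPM in the 37 DAS libraries (log2FC 1.91, adjusted p = 0.00015). All 3 regulators were separated between the days, in library 3 as well.

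The WRKY genes with the largest increases were those of the defense response. *WRKY18* had 231, 460.2 and 113 CPM in the 44 DAS libraries, against 42.0, 23.2 and 36.7 CPM in the 37 DAS libraries and *WRKY40*, its partner in repressing immunity, had 69.7, 103 and 26.0 CPM in the 44 DAS libraries, against 13.5, 5.81 and 15.5 CPM in the 37 DAS libraries, with log2FC of 2.98 and 2.51. *WRKY22* rose by 2.4 and *WRKY75* by 2.09, although *WRKY75* stayed at 5.56, 5.19 and 0.814 CPM at 44 DAS and 1.01, 1.05 and 0.641 CPM at 37 DAS. *WRKY53*, an early senescence regulator, did not pass the test, at 31.2, 27.7 and 13.2 CPM at 44 DAS and 23.9, 25.2 and 15.9 CPM at 37 DAS.

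The effectors with the largest steady increases answer to darkness and low sugar. The time of day of each harvest is not given, so that age and clock time cannot be told apart for such genes. *ASN1*, an asparagine synthetase that loads nitrogen for export, had 1116, 1214 and 897 CPM in the 44 DAS libraries, against 183, 56.4 and 190.1 CPM in the 37 DAS libraries (log2FC 2.91, SE 0.46, adjusted p = 1.1e-05). *DIN10*, a raffinose synthase-like gene induced by darkness, had 1846, 2285 and 1459.6 CPM in the 44 DAS libraries, against 243, 202 and 143 CPM in the 37 DAS libraries (log2FC 3.25, adjusted p = 1.4e-07). *SEN1* (AT4G35770), another dark-induced gene, had 437, 292 and 234 CPM in the 44 DAS libraries, against 37.7, 38.3 and 45.6 CPM in the 37 DAS libraries (log2FC 2.98, adjusted p = 2.9e-06). *SAG12*, the cysteine protease used as the classic marker of late senescence, behaved otherwise. It had 0.476, 100.1 and 0.176 CPM in the 44 DAS libraries, against 0.0210, 0 and 0.0229 CPM in the 37 DAS libraries, so that 1 library carried nearly all its transcript. Its adjusted p of 0.0081 rested on that library and was 0.591 without library 2 of 44 DAS.

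Autophagy genes moved together with small changes. Of 24 core autophagy genes 18 rose and none fell (median log2FC 0.51), and 15 to 19 rose when a library was left out. *ATG8E*, one of the ubiquitin-like proteins that coat the autophagosome, had 128, 120.0 and 85.9 CPM in the 44 DAS libraries, against 16.2, 22.4 and 16.6 CPM in the 37 DAS libraries (log2FC 2.6, SE 0.22, adjusted p = 7.8e-10). Its paralog *ATG8F* had 269, 262 and 215 CPM in the 44 DAS libraries, against 86.6, 87.1 and 96.6 CPM in the 37 DAS libraries (log2FC 1.47, adjusted p = 1.7e-09). Paralogs *ATG8H* (0.77) and *ATG8A* (0.46) changed less, and *ATG8A* lost its call without library 2 of 44 DAS (adjusted p = 0.0522). *ATG2* (AT3G19190), a lipid transfer protein of the growing membrane, rose by 1.00, and *ATG5*, part of the ligase complex that attaches ATG8, by 0.81. The mean level of the list, as log2(CPM + 0.5), was 4.94, 4.97 and 4.68 in the 44 DAS libraries, against 4.27, 4.31 and 4.26 in the 37 DAS libraries, and the days did not overlap.

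Chlorophyll breakdown did not share this direction. Of 13 genes of the pathway 1 was higher and 4 were lower (median log2FC −0.09). The member that was higher is not named here. *SGR1*, the magnesium dechelatase of senescent leaves, had 25.2, 31.2 and 15.4 CPM at 44 DAS and 18.8, 17.5 and 21.8 CPM at 37 DAS and did not pass the test (adjusted p = 0.42). The red chlorophyll catabolite reductase gene *ACD2* had 31.5, 28.9 and 27.9 CPM in the 44 DAS libraries, against 41.1, 36.8 and 43.6 CPM in the 37 DAS libraries (log2FC −0.46, adjusted p = 0.00038). *TIC55*, which hydroxylates chlorophyll catabolites, fell by 0.75 on the log2 scale, at 60.6, 54.6 and 54.3 CPM at 44 DAS and 94.1, 95.6 and 94.6 CPM at 37 DAS. The chlorophyllase gene *CLH2* fell to a low level, at 0.999, 1.7 and 0.704 CPM at 44 DAS and 3.65, 4.07 and 3.34 CPM at 37 DAS. The higher count was 0 without library 2 of 37 DAS, library 1 of 44 DAS or library 2 of 44 DAS, and 2 without library 3 of 44 DAS.

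Nitrogen genes changed in both directions, at shares not far from those of all genes. Of 21 remobilization genes 6 rose and 2 fell (median log2FC 0.18), and of 18 genes of nitrate transport and assimilation 5 rose and 4 fell (0.14). *GDH2*, a glutamate dehydrogenase that releases ammonium in carbon-starved tissue, had 539, 688 and 336 CPM in the 44 DAS libraries, against 176, 66.6 and 176 CPM in the 37 DAS libraries (log2FC 1.9, SE 0.37, adjusted p = 0.00015). *PPDK*, which supplies carbon for glutamine export, had 216, 240.4 and 134 CPM in the 44 DAS libraries, against 98.4, 67.1 and 99.2 CPM in the 37 DAS libraries (log2FC 1.16, adjusted p = 3.7e-05). The cytosolic glutamine synthetase gene *GLN1;1* went the other way, with 172, 257 and 119.6 CPM in the 44 DAS libraries, against 382, 455 and 327 CPM in the 37 DAS libraries (log2FC −1.09, adjusted p = 0.00056). The vacuolar nitrate exchanger gene *CLC-A* (1.71), the transporter gene *NRT1:2* (1.39), the cytosolic fumarase gene *FUM2* (1.83) and *LBD37*, a repressor of nitrogen-responsive genes (1.71), all rose. *LBD37* is counted with the regulators of anthocyanin synthesis, not with these lists. The members of the nitrate list named here all rose, and none of the 4 that fell is named. The nitrate list had 3 members higher without library 1 of 37 DAS or libraries 1 or 2 of 44 DAS, and its lower count was 2 without libraries 1 or 3 of 37 DAS and 1 without library 1 of 44 DAS. The lower count of the remobilization list was 1 without libraries 1 or 3 of either day.

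Sugar genes also changed in both directions, at shares near those of all genes. *STP1*, a plasma membrane importer of hexoses that sugar represses, had 1554, 2115 and 1152 CPM in the 44 DAS libraries, against 226, 173 and 174 CPM in the 37 DAS libraries (log2FC 3.07, SE 0.30, adjusted p = 5e-09), a gap of several-fold between the days. Among 21 genes of starch and sucrose metabolism 5 rose and 5 fell. The plastid beta-amylase gene *BAM1* (AT3G23920) had 238, 362 and 154 CPM in the 44 DAS libraries, against 115, 64.7 and 122 CPM in the 37 DAS libraries (log2FC 1.32, adjusted p = 0.00022). *SEX1*, the glucan, water dikinase that opens starch granules to degradation, had 184, 181 and 167 CPM in the 44 DAS libraries, against 261, 298 and 247 CPM in the 37 DAS libraries (log2FC −0.60, adjusted p = 0.00184). The higher count was 3 without library 2 of 37 DAS and 2 without library 2 of 44 DAS, and the lower count was 3 without library 3 of 37 DAS or library 1 of 44 DAS.

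Antenna genes did not fall, and were called higher about as often as all tested genes. Of 21 light-harvesting antenna genes 5 rose and none fell (median log2FC 0.33), with 3 rising without libraries 1 or 2 of either day. *LHCB4.2*, a minor antenna protein of photosystem II, had 3542, 2795 and 3348 CPM in the 44 DAS libraries, against 1789, 1769.8 and 2024 CPM in the 37 DAS libraries (log2FC 0.79, SE 0.20, adjusted p = 0.00165). *LHCA4*, of photosystem I, had 10154, 9344 and 8765 CPM in the 44 DAS libraries, against 6138, 6277 and 6319 CPM in the 37 DAS libraries (log2FC 0.59, adjusted p = 0.0104), and the major antenna gene *LHB1B2* rose by 0.68. Its close relatives share sequence, so that reads of the family may be split among them. The 21 genes kept a mean level, as log2(CPM + 0.5), of 11.28, 11.06 and 11.11 in the 44 DAS libraries, against 10.76, 10.78 and 10.87 in the 37 DAS libraries.

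Calvin cycle genes were called lower about as often as all tested genes. Of 21 Calvin cycle genes 1 rose and 5 fell (median log2FC −0.22), with 3 falling without library 2 of either day and 2 rising without library 3 of 44 DAS. *RBCS1B*, a Rubisco small subunit gene, had 551, 409.9 and 635 CPM in the 44 DAS libraries, against 1481, 1777 and 1615 CPM in the 37 DAS libraries (log2FC −1.61, SE 0.30, adjusted p = 7.1e-05). Its near-identical paralogs make its share of the reads uncertain. *EMB3119*, listed here as a ribose 5-phosphate isomerase gene, had 152, 113 and 147 CPM in the 44 DAS libraries, against 229, 248 and 218 CPM in the 37 DAS libraries (log2FC −0.75, adjusted p = 0.00091). Of 32 nuclear photosystem and electron transport genes 4 rose and 4 fell. The leaf plastocyanin gene *PETE1* rose by 0.77, whereas the ferredoxin gene *FD1* had 44.5, 35.2 and 49.98 CPM in the 44 DAS libraries, against 78.5, 95.2 and 77.3 CPM in the 37 DAS libraries (log2FC −0.95, adjusted p = 7e-05). The photosystem counts fell to 2 and 1 without library 1 of 37 DAS, and the lower count was 1 without library 2 of either day and 2 without library 3 of 37 DAS.

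Lists of plastid gene expression and lipid synthesis held more decreases than increases. Of 14 plastid transcription and sigma factor genes 5 fell and none rose (median log2FC −0.25), but only 1 fell without library 2 of either day or library 1 of 44 DAS. *PTAC2*, a component of the plastid transcription complex, had 35.4, 29.6 and 45.3 CPM in the 44 DAS libraries, against 53.4, 69.5 and 50.9 CPM in the 37 DAS libraries (log2FC −0.66, SE 0.15, adjusted p = 0.00083). *FSD3*, an iron superoxide dismutase of the plastid nucleoid, had 12.7, 10.1 and 22.4 CPM in the 44 DAS libraries, against 23.8, 37.5 and 30.9 CPM in the 37 DAS libraries (log2FC −1.02, adjusted p = 0.00199). It is counted with the iron, copper and superoxide dismutase genes, not with the plastid transcription genes. Of 16 genes of plastid fatty acid synthesis 2 rose and 6 fell (median log2FC −0.30), with 3 falling without library 2 of 44 DAS. *SSI2*, the stearoyl-ACP desaturase, had 89.4, 101 and 109 CPM in the 44 DAS libraries, against 163, 161 and 171 CPM in the 37 DAS libraries (log2FC −0.73, adjusted p = 3.3e-07), and the thioesterase gene *FATB*, which releases saturated fatty acids, had 163, 201 and 150.2 CPM in the 44 DAS libraries, against 97.7, 81.5 and 84.2 CPM in the 37 DAS libraries (log2FC 0.96, adjusted p = 8.9e-06).

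Chlorophyll synthesis genes changed in both directions. Of 24 genes 3 rose and 6 fell (median log2FC −0.05), and the lower count was 3 without library 2 of 37 DAS or library 1 of 44 DAS and 1 without library 2 of 44 DAS. Both genes for glutamyl-tRNA reductase, the first committed step, rose. *HEMA1*, the light-induced copy, had 754, 732 and 636 CPM in the 44 DAS libraries, against 370.1, 335 and 325 CPM in the 37 DAS libraries (log2FC 1.04, SE 0.18, adjusted p = 4.1e-05). *HEMA2*, the other copy, had 83.1, 127 and 43.1 CPM in the 44 DAS libraries, against 27.4, 20.6 and 24.7 CPM in the 37 DAS libraries (log2FC 1.8, adjusted p = 1.2e-06). Of 15 photorespiration genes 4 rose and 1 fell, with 1 rising without library 2 of 44 DAS and none falling without libraries 1 or 3 of either day or library 2 of 37 DAS. *GLU1*, the ferredoxin-dependent glutamate synthase that recycles photorespiratory ammonium, had 1507, 1455 and 1272 CPM in the 44 DAS libraries, against 1104, 1104 and 882 CPM in the 37 DAS libraries (log2FC 0.45, adjusted p = 0.0029).

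Flavonoid genes were lower at 44 DAS. Of 18 flavonoid and anthocyanin enzymes 1 rose and 11 fell (median log2FC −1.12). *UF3GT*, which adds xylose to anthocyanins, had 1.31, 0.646 and 1.39 CPM in the 44 DAS libraries, against 10.1, 0.641 and 11.5 CPM in the 37 DAS libraries (log2FC −2.73, SE 0.81, adjusted p = 0.00758). *AT5MAT*, the anthocyanin malonyltransferase, had 0.808, 0.454 and 2.09 CPM in the 44 DAS libraries, against 7.61, 1.41 and 7.62 CPM in the 37 DAS libraries (log2FC −2.30, adjusted p = 0.0041). In both genes library 2 of 37 DAS lay near the later day and the other libraries of 37 DAS were far above it. *CHS*, the first enzyme of the flavonoid branch, had 46.0, 22.7 and 48.9 CPM in the 44 DAS libraries, against 117, 54.0 and 127 CPM in the 37 DAS libraries (log2FC −1.34, adjusted p = 0.0161), and *GSTF12*, which carries anthocyanins to the vacuole, had 4.26, 2.51 and 3.98 CPM in the 44 DAS libraries, against 15.8, 2.54 and 20.2 CPM in the 37 DAS libraries (log2FC −1.84, adjusted p = 0.0129). *UGT73B1*, a flavonol glucosyltransferase, was the member that rose, with 35.2, 15.3 and 18.3 CPM in the 44 DAS libraries, against 6.52, 6.99 and 4.90 CPM in the 37 DAS libraries (log2FC 1.9, adjusted p = 0.00033). *MYB75*, a MYB activator of anthocyanin synthesis, had 2.5, 1.86 and 2.38 CPM in the 44 DAS libraries, against 7.15, 0.538 and 16.5 CPM in the 37 DAS libraries (log2FC −1.84, adjusted p = 0.0284).

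These calls depended on few libraries. The lower count was 7 without library 3 of 37 DAS and 6 without library 2 of 44 DAS, and 10 without the pair that stood apart, and the higher count was 2 without library 3 of 44 DAS. Without library 3 of 37 DAS, the adjusted p was 0.0689 for *CHS*, 0.0889 for *GSTF12* and 0.399 for *MYB75*, and without library 2 of 44 DAS it was 0.098, 0.0639 and 0.0926. The *MYB75* call was also lost without library 1 (0.0611) or library 3 (0.0522) of 44 DAS, and its log2FC was −0.77 without library 3 of 37 DAS. Among 17 regulators of anthocyanin synthesis 4 rose and 6 fell, with falling counts of 2 without library 3 of 37 DAS or libraries 1 or 3 of 44 DAS and 0 without library 2 of 44 DAS, and rising counts of 2 without library 3 of 37 DAS or library 2 of 44 DAS.

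Of 18 phenylpropanoid and lignin enzymes 8 fell and none rose (median log2FC −0.24), and 5 fell without library 3 of 37 DAS. One member was called higher without libraries 1 or 3 of either day. *FAH1* (AT4G36220), the ferulate 5-hydroxylase of sinapate and syringyl lignin synthesis, had 63.5, 65.7 and 63.3 CPM in the 44 DAS libraries, against 115, 127 and 123 CPM in the 37 DAS libraries (log2FC −0.93, SE 0.13, adjusted p = 1.6e-06). *ATCAD4*, a cinnamyl alcohol dehydrogenase, had 32.4, 36.3 and 35.1 CPM in the 44 DAS libraries, against 62.2, 72.3 and 65.4 CPM in the 37 DAS libraries (log2FC −0.94, adjusted p = 2.5e-05). The days were narrow and well apart in both genes. The coumarate ligase *4CL3*, which serves the flavonoid branch, fell by 1.46 on the log2 scale, and *HCT*, which leads toward lignin, fell by 0.55.

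Aliphatic glucosinolates are sulfur-rich defense compounds made from methionine. *MYB28*, the main activator of their synthesis, had 40.1, 35.3 and 51.1 CPM in the 44 DAS libraries, against 107, 96.3 and 118 CPM in the 37 DAS libraries (log2FC −1.34, SE 0.17, adjusted p = 4.6e-07), and all 3 later libraries were below the earlier ones. Of 25 genes of the pathway 1 rose and 7 fell (median log2FC −0.45, with −0.78 without library 2 and −0.11 without library 3 of 37 DAS). The list level, as log2(CPM + 0.5), was 6.58, 6.58 and 6.50 in the 44 DAS libraries, against 7.06, 5.79 and 7.48 in the 37 DAS libraries, so that library 2 of 37 DAS was below every later library and the others above. Without that library 14 members fell, without the pair that stood apart 11 fell, and only 2 fell without library 3 of 37 DAS and 4 without library 2 of 44 DAS. The member that rose lost its call without library 2 of either day. Among 22 genes of the indole branch and camalexin 5 rose and 1 fell. *IGMT1*, which methylates indole glucosinolates, had 21.0, 10.4 and 5.85 CPM in the 44 DAS libraries, against 2.91, 2.92 and 4.97 CPM in the 37 DAS libraries (log2FC 1.79, adjusted p = 5.2e-05), and without library 1 of 44 DAS its log2FC was 1.17. The rising indole count was then 3. The falling count was 3 without library 2 of 37 DAS and 0 without library 3 of either day.

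Markers of sulfur deficiency were called higher more often than all tested genes, with members in both directions. Of 12 tested markers 5 rose and 2 fell (median log2FC 0.52). In Col-0 7 of them rose and 1 fell (median 1.11), and the difference between the genotypes was not tested for the list. *AT5G26220*, a gamma-glutamyl cyclotransferase that recycles glutathione, had 34.2, 20.9 and 24.3 CPM in the 44 DAS libraries, against 91.5, 69.8 and 101 CPM in the 37 DAS libraries (log2FC −1.72, SE 0.25, adjusted p = 2.3e-06), the clearest change of the list. The marker *AT1G12030* had 13.2, 7.65 and 10.8 CPM in the 44 DAS libraries, against 3.56, 4.2 and 3.11 CPM in the 37 DAS libraries (log2FC 1.54, adjusted p = 0.00107). *SDI1*, a repressor of glucosinolate synthesis under sulfur deficiency, had 6.56, 7.82 and 5.72 CPM at 44 DAS and 3.61, 3.56 and 4.71 CPM at 37 DAS and did not pass the test, nor did *LSU1*, at 33.9, 22.4 and 20.6 CPM at 44 DAS and 18.4, 24.4 and 15.9 CPM at 37 DAS. *LSU2* fell by 0.74 on the log2 scale, a call lost without library 2 of 37 DAS (adjusted p = 0.2) or without library 1 (0.0697), library 2 (0.109) or library 3 (0.0888) of 44 DAS, so that 1 member fell in those fits.

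Of 27 genes of sulfate uptake, reduction and cysteine synthesis 6 rose and 4 fell (median log2FC 0.05). *APS2* (AT1G19920), an ATP sulfurylase that activates sulfate, had 49.2, 42.2 and 57.5 CPM in the 44 DAS libraries, against 95.1, 83.7 and 96.5 CPM in the 37 DAS libraries (log2FC −0.89, SE 0.13, adjusted p = 4.8e-06). *APR2*, the main sulfate reductase of the leaf, had 85.6, 91.1 and 102 CPM in the 44 DAS libraries, against 146, 146 and 125 CPM in the 37 DAS libraries (log2FC −0.58, adjusted p = 0.0139), with an adjusted p of 0.054 without library 1 of 44 DAS. Only 1 member rose without library 2 of 37 DAS, 2 rose without library 1 and 3 without library 2 of 44 DAS, and 2 fell without library 1 or 2 of 44 DAS. The vacuolar sulfate exporter gene *SULTR4;2* is described with the comparison of the genotypes.

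The close relatives of *SLIM1* were higher. *EIN3*, the main transcription factor of the ethylene response, had 290.2, 296 and 208 CPM in the 44 DAS libraries, against 166, 155 and 159 CPM in the 37 DAS libraries (log2FC 0.73, SE 0.12, adjusted p = 2.7e-05). *EIL1*, its partner, had 138, 96.8 and 112 CPM in the 44 DAS libraries, against 69.4, 77.7 and 54.7 CPM in the 37 DAS libraries (log2FC 0.78, adjusted p = 0.00018). *EIL2* and the remaining members had too few counts to be tested. Of 25 genes of ethylene synthesis, perception and response 14 rose and none fell (median log2FC 0.70). *ACS11* and *ACS8*, which make the ethylene precursor, rose by 2.49 and 2.42, with *ACS8* at 6.30, 11.7 and 7.13 CPM at 44 DAS and 1.47, 1.78 and 1.44 CPM at 37 DAS. *EBF2*, the F-box protein that marks EIN3 for degradation, had 185, 157 and 163 CPM in the 44 DAS libraries, against 85.3, 86.7 and 73.0 CPM in the 37 DAS libraries (log2FC 1.04, adjusted p = 1.5e-06). The ethylene response factor gene *ERF1A* had 84.2, 105 and 52.2 CPM in the 44 DAS libraries, against 15.8, 9.88 and 16.8 CPM in the 37 DAS libraries (log2FC 2.5, adjusted p = 1.4e-06).

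Genes that react to touch and wounding within minutes were high at 44 DAS. Of 26 such genes 19 rose and none fell (median log2FC 1.26), and 13 to 25 rose when a library was left out. The median was 0.77 without library 2 and 1.57 without library 3 of 44 DAS. *TCH4*, a xyloglucan enzyme induced by touch, had 214, 362 and 137 CPM in the 44 DAS libraries, against 15.3, 29.8 and 17.62 CPM in the 37 DAS libraries (log2FC 3.5, SE 0.49, adjusted p = 2e-06). *TCH3*, a calmodulin-like protein, had 957, 1134 and 533 CPM in the 44 DAS libraries, against 342, 263 and 259.8 CPM in the 37 DAS libraries (log2FC 1.6, adjusted p = 8.3e-06), and its relative *CML38* had 43.0, 65.9 and 15.1 CPM in the 44 DAS libraries, against 11.4, 3.93 and 14.2 CPM in the 37 DAS libraries (log2FC 2.07, adjusted p = 0.00079). The mean level of the list, as log2(CPM + 0.5), was 5.45, 5.89 and 4.52 in the 44 DAS libraries, against 4.21, 3.82 and 3.99 in the 37 DAS libraries. It was highest in library 2 of 44 DAS, and library 3 lay nearest to the earlier day. Stalks were removed about 4 min before freezing at both ages, and the part of that handling in these levels was not tested.

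Jasmonate genes varied widely between replicates and were called at a share near that of all genes. Of 25 genes 6 rose and none fell (median log2FC 0.92). Their mean level was 7.60, 7.97 and 6.31 in the 44 DAS libraries, against 6.69, 4.49 and 7.16 in the 37 DAS libraries, and library 2 of 37 DAS was far below its replicates. Without that library 1 member fell. *JAZ7*, a repressor induced by the hormone, had 40.1, 92.4 and 20.7 CPM in the 44 DAS libraries, against 6.77, 0.600 and 11.7 CPM in the 37 DAS libraries (log2FC 3.01). Its relative *JAZ8* had 26.1, 48.0 and 8.93 CPM in the 44 DAS libraries, against 3.5, 0.269 and 4.26 CPM in the 37 DAS libraries (log2FC 3.38). The vegetative storage protein gene *VSP1*, a classic jasmonate target, had 169, 89.2 and 75.7 CPM at 44 DAS and 294, 67.4 and 637 CPM at 37 DAS and did not pass the test (adjusted p = 0.0766). The rising count was 3 without library 2 of either day, 11 without library 3 of 37 DAS and 13 without library 3 of 44 DAS, and the median ranged from 0.56 to 1.39.

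**Figure D3:**
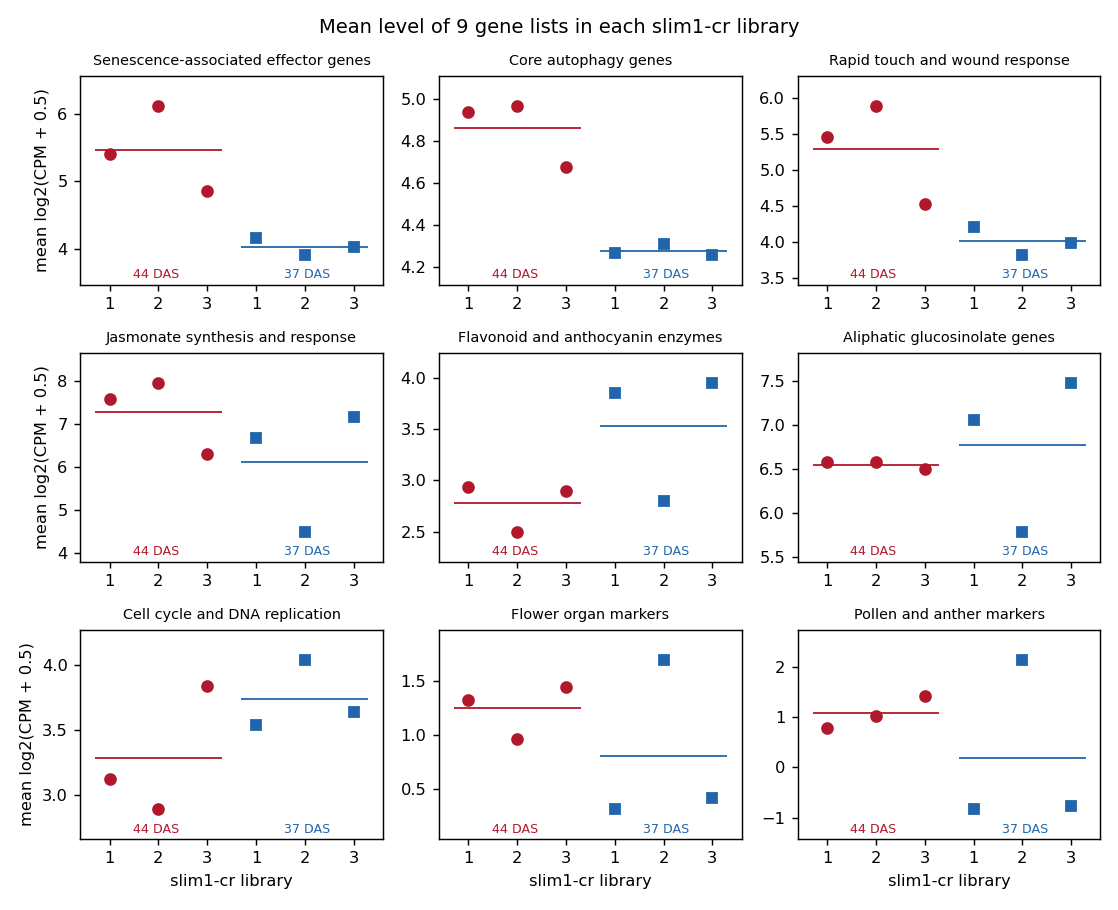
Mean level of 9 gene lists in each *slim1-cr* library, as log2(CPM + 0.5) on the vertical axis, with red circles for 44 DAS, blue squares for 37 DAS and lines for the means of the days. Effector, autophagy and touch lists separate the days, whereas in the jasmonate, flavonoid, glucosinolate, flower and pollen lists library 2 of 37 DAS departs from its replicates.

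A motif bound by calmodulin-binding CAMTA factors, which drive rapid stress responses, was looked for between 250 bases before and 50 bases after the start of each gene, in the RefSeq assembly TAIR10.1. The word ACGCGG, its reverse complement CCGCGT, and the palindromes ACGCGT and also CCGCGG were counted, none of which contains another motif searched here. It stood in 5.25% of the promoters of all tested genes, in 9.36% of those called higher and in 3.23% of those called lower. Among called genes with a log2FC above 1 the share was 11.3%, among those below −1 it was 2.36%, and 6 of the 26 touch and wound genes (23.1%) held it. The W-box bound by WRKY factors (TTGACC or TTGACT and their reverse complements) stood in 32.6% of all promoters, in 35.9% of those higher and in 28.6% of those lower. *EXL1* and *NAC055*, among the genes with the largest increases, are shown as examples because they hold the CAMTA word, and capitals mark each match of the motifs searched. The first lies at chr1:12851733-12852032, plus strand, and the second at chr3:5234207-5234506, plus strand.
EXL1: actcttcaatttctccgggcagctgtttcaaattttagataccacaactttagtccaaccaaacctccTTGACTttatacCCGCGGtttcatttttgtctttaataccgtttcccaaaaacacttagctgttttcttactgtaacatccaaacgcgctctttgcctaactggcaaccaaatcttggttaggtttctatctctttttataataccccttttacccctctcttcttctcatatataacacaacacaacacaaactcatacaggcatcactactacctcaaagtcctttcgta
NAC055: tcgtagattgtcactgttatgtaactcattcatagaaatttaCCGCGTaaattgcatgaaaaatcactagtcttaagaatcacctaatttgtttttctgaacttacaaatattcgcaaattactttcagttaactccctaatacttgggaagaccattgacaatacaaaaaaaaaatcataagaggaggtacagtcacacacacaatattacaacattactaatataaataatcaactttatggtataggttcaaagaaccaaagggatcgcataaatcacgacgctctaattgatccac

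In *EXL1* the W-box word stands 182 bases before the start and the CAMTA word 170 bases before it, and in *NAC055* the CAMTA word stands 208 bases before the start. A match describes the letters of the window and is no evidence of binding.

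Of the other hormones, auxin response stood out by its counts. Of 25 auxin genes 10 rose and 2 fell (median log2FC 0.50). *IAA2*, an auxin-induced repressor, had 146, 148 and 84.4 CPM in the 44 DAS libraries, against 38.1, 33.9 and 43.6 CPM in the 37 DAS libraries (log2FC 1.71, SE 0.19, adjusted p = 5.5e-08). *GH3.5*, which conjugates auxin to amino acids, had 41.2, 22.9 and 29.3 CPM in the 44 DAS libraries, against 5.58, 6.62 and 6.29 CPM in the 37 DAS libraries (log2FC 2.34, adjusted p = 2.3e-06). *IAA19* rose by 1.16, whereas *TAA1*, which makes the auxin precursor, had 2.47, 1.67 and 4.62 CPM in the 44 DAS libraries, against 6.33, 7.84 and 8.24 CPM in the 37 DAS libraries (log2FC −1.35, adjusted p = 0.0017).

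Of 23 abscisic acid genes 7 rose and 3 fell (median log2FC 0.42, and 0.74 without library 3 of 37 DAS). The dehydrin gene *RAB18* (AT5G66400), a standard reporter of the hormone, had 21.5, 18.3 and 12.9 CPM in the 44 DAS libraries, against 5.87, 4.80 and 6.68 CPM in the 37 DAS libraries (log2FC 1.6, SE 0.37, adjusted p = 0.00092). The hydroxylase genes that break it down were split. *CYP707A3* had 12.2, 13.9 and 10.7 CPM in the 44 DAS libraries, against 4.76, 6.57 and 3.73 CPM in the 37 DAS libraries (log2FC 1.28, adjusted p = 0.00022), and *CYP707A2* had 0.785, 0.406 and 0.726 CPM in the 44 DAS libraries, against 2.39, 5.17 and 2.36 CPM in the 37 DAS libraries (log2FC −2.37, adjusted p = 1.8e-05). Of 17 cytokinin genes 1 rose and 3 fell, and the falling count was 0 without library 1 and 1 without library 2 of 44 DAS. The cytokinin oxidase gene *CKX7* had 36.7, 50.7 and 40.4 CPM in the 44 DAS libraries, against 24.2, 23.1 and 23.48 CPM in the 37 DAS libraries (log2FC 0.85, adjusted p = 0.00276).

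Salicylate genes were mostly not called. Of 20 genes 3 rose and 1 fell (median log2FC 0.28, between 0.07 without library 2 and 0.55 without library 3 of 44 DAS, and 0.61 without library 2 of 37 DAS). The member that fell lost its call without library 2 of 37 DAS or any library of 44 DAS. Without the pair of libraries that stood apart 7 rose. *NPR3*, a salicylate receptor, had 57.5, 79.1 and 35.6 CPM in the 44 DAS libraries, against 20.6, 24.3 and 15.1 CPM in the 37 DAS libraries (log2FC 1.52, adjusted p = 4e-05), and *NUDT7*, a negative regulator of immunity, had 225, 303 and 103 CPM in the 44 DAS libraries, against 102, 93.8 and 79.1 CPM in the 37 DAS libraries (log2FC 1.2, adjusted p = 0.00146). *PR1*, the usual marker of the response, had 48.4, 69.1 and 11.1 CPM at 44 DAS and 15.5, 40.6 and 5.70 CPM at 37 DAS, with an adjusted p of 0.28. *PR5*, another such marker, had 80.8, 87.4 and 32.1 CPM at 44 DAS and 111, 184 and 78.5 CPM at 37 DAS, with an adjusted p of 0.13. The days overlapped in both genes.

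Cell division genes were called lower at a share below that of all genes, and their level differed widely among the replicates of 44 DAS. Of 26 cell cycle and DNA replication genes 4 fell and none rose (median log2FC −0.44). Their mean level was 3.12, 2.89 and 3.84 in the 44 DAS libraries, against 3.54, 4.04 and 3.64 in the 37 DAS libraries, and library 3 of 44 DAS lay within the range of the earlier day. Without that library 11 fell and the median was −0.81, without library 2 of 37 DAS or libraries 1 or 2 of 44 DAS 2 fell, and without the pair that stood apart 8 fell. *GRF7* (AT5G53660), a growth-regulating factor, had 0.975, 0.669 and 1.63 CPM in the 44 DAS libraries, against 3.04, 3.80 and 3.43 CPM in the 37 DAS libraries (log2FC −1.64, SE 0.29, adjusted p = 4.3e-05). Its relative *GRF5* (AT3G13960), which promotes cell division in leaves, had 3.95, 3.90 and 7.52 CPM in the 44 DAS libraries, against 9.31, 13.8 and 10.1 CPM in the 37 DAS libraries (log2FC −1.11, adjusted p = 0.00263). *PCNA1*, the sliding clamp of DNA replication, had 7.01, 5.91 and 11.8 CPM at 44 DAS and 11.8, 15.2 and 14.7 CPM at 37 DAS and did not pass the test (adjusted p = 0.0718).

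Among 24 expansin, XTH and wall synthesis genes 6 rose and 6 fell, with 3 falling without library 3 of 37 DAS and 2 without library 2 of 44 DAS. *EXPA15*, a wall-loosening expansin, had 3.92, 2.82 and 9.20 CPM in the 44 DAS libraries, against 14.7, 22.7 and 18.5 CPM in the 37 DAS libraries (log2FC −1.81, SE 0.41, adjusted p = 0.00069). *XTH6* had 130.1, 86.6 and 169.7 CPM in the 44 DAS libraries, against 51.8, 36.0 and 55.4 CPM in the 37 DAS libraries (log2FC 1.43, adjusted p = 0.00059), and *XTH18* had 35.2, 67.7 and 20.6 CPM in the 44 DAS libraries, against 10.02, 6.00 and 12.2 CPM in the 37 DAS libraries (log2FC 2.13, adjusted p = 0.00421), so that members of the XTH family differed from the expansin in direction. The cellulose synthase gene *CESA1* rose by 0.54. Of 9 trichome markers 3 fell and none rose. *GL1*, which starts trichome fate, had 0.761, 0.406 and 0.858 CPM in the 44 DAS libraries, against 1.74, 1.41 and 2.49 CPM in the 37 DAS libraries (log2FC −1.47, adjusted p = 0.00475), and *TRY*, which inhibits it in neighboring cells, had 0.832, 0.837 and 0.682 CPM in the 44 DAS libraries, against 3.00, 2.21 and 2.24 CPM in the 37 DAS libraries (log2FC −1.66, adjusted p = 5.2e-05). Of 16 xylem and fiber markers 5 rose and none fell.

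Clock genes changed more often than most groups. Of 24 core clock genes and outputs 7 rose and 10 fell (median log2FC −0.02), and the 2 days did not overlap for 16 of them, beside 44.5% of all genes tested. The clock genes named here all fell, and none of the 7 that rose is named. The rising count was 3 without library 1 and 4 without library 2 of 44 DAS. *CCA1*, which peaks at dawn, had 33.3, 30.7 and 29.6 CPM in the 44 DAS libraries, against 60.4, 49.1 and 65.3 CPM in the 37 DAS libraries (log2FC −0.90, SE 0.13, adjusted p = 4.1e-06). *GI*, which peaks late in the day, had 50.2, 67.3 and 47.4 CPM in the 44 DAS libraries, against 105, 114 and 81.4 CPM in the 37 DAS libraries (log2FC −0.87, adjusted p = 8.2e-05). *FKF1*, the blue-light receptor that works with GI, had 4.80, 4.64 and 2.27 CPM in the 44 DAS libraries, against 12.3, 19.6 and 9.04 CPM in the 37 DAS libraries (log2FC −1.81, adjusted p = 0.00048). *GRP7*, an RNA-binding output gene, had 168, 201 and 218 CPM in the 44 DAS libraries, against 592, 726 and 528 CPM in the 37 DAS libraries (log2FC −1.65). Its paralog *GRP8* had 63.8, 86.6 and 69.2 CPM in the 44 DAS libraries, against 241, 253 and 235 CPM in the 37 DAS libraries (log2FC −1.73). These genes cycle over the day, so that the age of the plants and the clock time of the harvest cannot be told apart.

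The evening element AAAATATCT, a sequence of clock-controlled promoters, was counted on either strand. It stood in 9 of the 24 clock promoters (37.5%), against 3.07% of all tested genes. Among genes called lower the share was 3.86%, among those lower with a log2FC below −1 it was 5.47%, and among those higher it was 2.82%. The windows of *FKF1* at chr1:25508389-25508688, plus strand, *GRP7* at chr2:9266508-9266807, minus strand and *GRP8* at chr4:18275167-18275466, minus strand are printed because each of these genes fell and holds the element, with matches in capitals.
FKF1: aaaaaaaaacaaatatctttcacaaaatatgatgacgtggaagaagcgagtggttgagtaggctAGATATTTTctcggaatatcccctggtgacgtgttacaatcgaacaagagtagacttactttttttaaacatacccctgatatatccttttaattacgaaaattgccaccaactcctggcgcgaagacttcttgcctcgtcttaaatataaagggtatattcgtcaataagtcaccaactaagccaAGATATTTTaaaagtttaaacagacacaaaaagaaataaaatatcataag
GRP7: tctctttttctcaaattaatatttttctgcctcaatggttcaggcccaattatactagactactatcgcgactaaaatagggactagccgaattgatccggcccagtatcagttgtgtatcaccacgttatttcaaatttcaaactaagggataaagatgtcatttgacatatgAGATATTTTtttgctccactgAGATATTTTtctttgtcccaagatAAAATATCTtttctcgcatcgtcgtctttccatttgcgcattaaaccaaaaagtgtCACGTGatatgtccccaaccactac
GRP8: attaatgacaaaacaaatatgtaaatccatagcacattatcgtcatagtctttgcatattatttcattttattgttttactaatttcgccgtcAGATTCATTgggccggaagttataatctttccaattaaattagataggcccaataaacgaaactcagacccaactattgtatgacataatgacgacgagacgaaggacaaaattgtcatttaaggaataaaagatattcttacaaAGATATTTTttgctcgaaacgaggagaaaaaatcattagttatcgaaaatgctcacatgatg

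*GRP7* holds 3 copies within the 76 bases before its start and a G-box word, CACGTG, 26 bases after it. *GRP8* holds a copy 12 bases before its start, and 157 bases before it a word of the EIL motif given in the study. *FKF1* holds a copy 186 bases before its start and another at the start.

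Genes of the shade response changed in both directions. Of 20 genes of PIF factors and shade response 9 rose and 5 fell (median log2FC 0.43), with 3 falling without library 1 of 44 DAS. *PIF4*, which promotes elongation in warmth and shade, had 168, 142 and 157 CPM in the 44 DAS libraries, against 65.8, 61.4 and 78.3 CPM in the 37 DAS libraries (log2FC 1.18, SE 0.14, adjusted p = 2e-07). *HFR1*, which restrains the PIF factors, had 8.47, 7.39 and 8.21 CPM in the 44 DAS libraries, against 0.587, 1.47 and 2.06 CPM in the 37 DAS libraries (log2FC 2.55, adjusted p = 3.8e-05), and the shade-induced homeobox gene *HAT1* had 42.3, 45.5 and 43.4 CPM in the 44 DAS libraries, against 9.41, 15.6 and 9.91 CPM in the 37 DAS libraries (log2FC 1.91, adjusted p = 6.1e-06). *HY5*, which acts against the PIF factors in light, had 3.5, 3.18 and 4.18 CPM in the 44 DAS libraries, against 6.54, 6.64 and 6.29 CPM in the 37 DAS libraries (log2FC −0.84, adjusted p = 0.00069), the direction of its homolog *HYH*.

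Of 26 flowering time genes 7 rose and 2 fell (median log2FC 0.12, and 0.58 without library 2 of 37 DAS). *FT*, the mobile signal that starts flowering, had 5.83, 8.77 and 3.1 CPM in the 44 DAS libraries, against 1.66, 1.28 and 1.17 CPM in the 37 DAS libraries (log2FC 2.1, SE 0.53, adjusted p = 0.00205). The repressors of *FT*, *RAV2* and *TEM1*, rose as well. *RAV2* had 149, 157 and 107 CPM in the 44 DAS libraries, against 20.3, 24.3 and 15.4 CPM in the 37 DAS libraries (log2FC 2.78, adjusted p = 9.5e-12), and *TEM1* had 180.4, 207 and 109 CPM in the 44 DAS libraries, against 26.4, 35.4 and 26.0 CPM in the 37 DAS libraries (log2FC 2.5, adjusted p = 1e-07). *SPL5*, a target of the ageing pathway of miR156, had 8.94, 10.7 and 8.95 CPM in the 44 DAS libraries, against 3.27, 3.64 and 2.24 CPM in the 37 DAS libraries (log2FC 1.64, adjusted p = 0.00018). *SOC1*, which integrates flowering signals, had 105, 91.8 and 79.3 CPM at 44 DAS and 66.7, 88.5 and 49.4 CPM at 37 DAS and did not pass the test (adjusted p = 0.119).

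**Figure D4:**
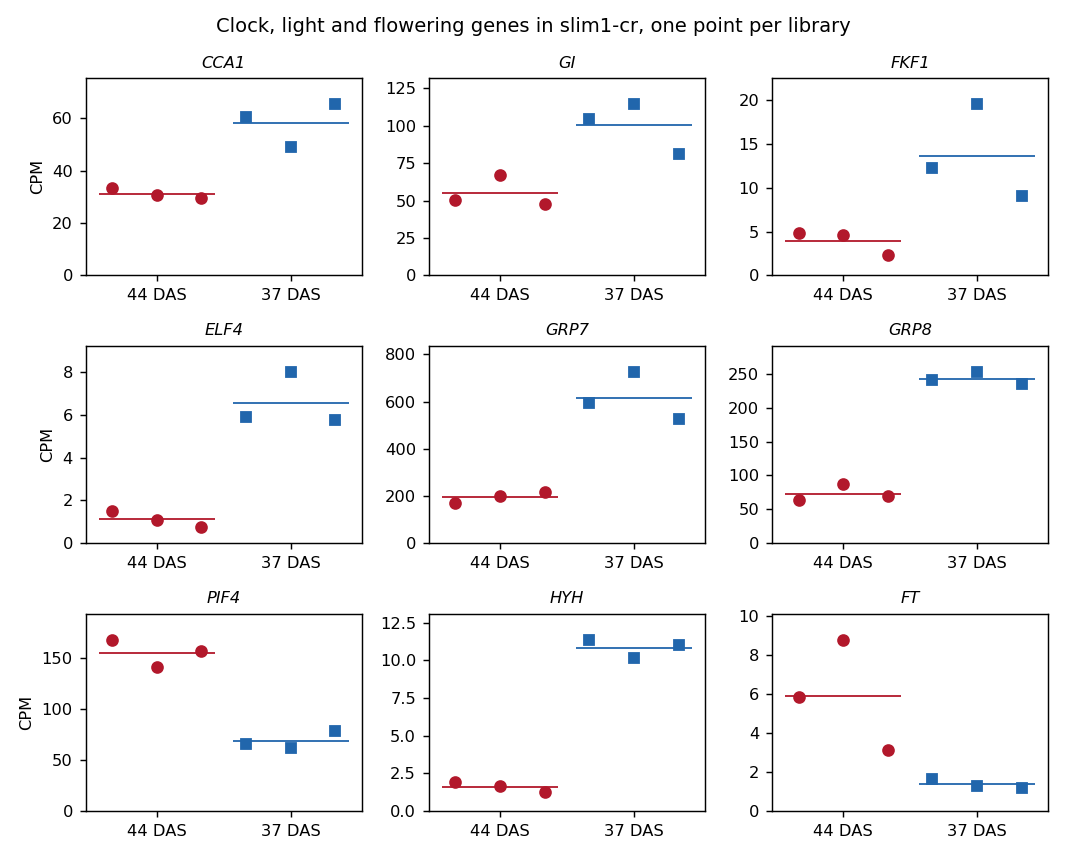
Level of 9 clock, light and flowering genes in *slim1-cr*, in CPM on the vertical axis, 1 point per library, red circles for 44 DAS, blue squares for 37 DAS and lines for the means. *PIF4* and *FT* lie higher at 44 DAS, and the 7 other genes lie lower with no overlap between the days. The clock genes drawn were all called lower, and clock genes that rose are not drawn.

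Cold genes were split within their pathway. Of 18 genes 5 rose and 4 fell (median log2FC −0.07, and 0.35 without library 3 of 37 DAS), with 3 rising without library 2 of 44 DAS. *CBF3*, a master factor of cold acclimation, had 0.428, 0.406 and 0.330 CPM in the 44 DAS libraries, against 5.33, 4.40 and 8.15 CPM in the 37 DAS libraries (log2FC −3.93, SE 0.39, adjusted p = 8.4e-09). *CBF2* had 1.26, 1.65 and 0.880 CPM in the 44 DAS libraries, against 3.04, 2.52 and 3.87 CPM in the 37 DAS libraries (log2FC −1.32, adjusted p = 0.00074), and the galactinol synthase gene *GolS3*, a target of these factors, had 1.71, 2.80 and 2.55 CPM in the 44 DAS libraries, against 6.79, 4.71 and 13.1 CPM in the 37 DAS libraries (log2FC −1.8, adjusted p = 0.00281). Of 19 phosphate starvation genes 3 rose and 5 fell, with 3 falling without library 2 of 37 DAS. The phosphate sensor gene *SPX1* had 5.99, 5.43 and 6.36 CPM in the 44 DAS libraries, against 9.98, 15.1 and 11.4 CPM in the 37 DAS libraries (log2FC −1.04, adjusted p = 7.1e-05), and the transporter gene *PHT1;4* had 1.52, 1.46 and 1.74 CPM in the 44 DAS libraries, against 4.03, 4.92 and 5.58 CPM in the 37 DAS libraries (log2FC −1.62, adjusted p = 0.00166). None of 13 heat shock genes was called, and 1 of them was called higher without library 3 of 44 DAS.

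The age changes of *slim1-cr* were then set against those of Col-0 in 1 model of all 13 groups, to ask in which genes they differed. With a single mutant line, the deletion and any other difference of that line cannot be told apart. In Col-0 5146 genes (24.5%) were higher and 5633 (26.8%) lower at 44 DAS. Of the 4510 genes higher in *slim1-cr* 3720 were also higher in Col-0, which is 82.5% of the mutant's and 72.3% of the wild type's calls. Of the 4245 lower genes 3574 were lower in Col-0 too, 84.2% and 63.4% of the calls. Only 3 genes were called in opposite directions. The test of the difference itself called 3 genes (0.0143% of those tested), all with a more negative change in *slim1-cr*, and 0 with a more positive one, while 1651 had an unadjusted p under 0.05. DESeq2 called 17 more positive and 20 more negative, and limma voom with quality weights 153 and 126. Without *slim1-cr* library 2 of 44 DAS the quasi-likelihood test called 10 and 13, without Col-0 library 1 of 44 DAS 4 and 11, without *slim1-cr* library 2 of 37 DAS 0 and 5, and 0 and 1 without *slim1-cr* library 3 of 37 DAS, libraries 1 or 3 of 44 DAS or Col-0 library 3 of 44 DAS. A fit of the 12 libraries of both genotypes alone called none. A missed threshold does not show that the other genes changed alike.

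*SULTR4;2* (AT3G12520), which releases sulfate from the vacuole, had 21.6, 18.6 and 23.1 CPM in the 44 DAS libraries, against 16.4, 14.1 and 15.3 CPM in the 37 DAS libraries in *slim1-cr*. In Col-0 it had 17.9, 21.9 and 20.4 CPM at 44 DAS and 5.69, 4.87 and 3.90 CPM at 37 DAS. The age change was 0.47 on the log2 scale in *slim1-cr* and 2.06 in Col-0 (difference −1.59, SE 0.23, adjusted p = 0.00228). At 44 DAS the genotypes overlapped, and at 37 DAS every mutant library lay above every Col-0 library. The difference was called whichever of the 12 libraries was left out, between −1.46 and −1.73. The small rise within *slim1-cr* itself lost its call without library 2 of 37 DAS (adjusted p = 0.0748) or libraries 1 (0.0532) or 3 (0.0687) of 44 DAS.

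*MSRB5* (AT4G04830), a methionine sulfoxide reductase that repairs oxidized proteins, had 10.7, 11.6 and 11.0 CPM in the 44 DAS libraries, against 8.91, 7.03 and 14.7 CPM in the 37 DAS libraries in *slim1-cr*, with overlapping days. In Col-0 it had 45.9, 50.5 and 61.8 CPM at 44 DAS and 10.1, 15.1 and 12.0 CPM at 37 DAS. The age changes were 0.12 and 2.09 on the log2 scale (difference −1.97, SE 0.32, adjusted p = 0.0114). *AT1G75280*, an isoflavone reductase-like gene of the NmrA family with no symbol in the reference, was named after its values were seen. It had 61.3, 81.1 and 69.1 CPM in the 44 DAS libraries, against 72.5, 59.7 and 85.1 CPM in the 37 DAS libraries in *slim1-cr*. In Col-0 it had 116, 170.0 and 163 CPM at 44 DAS and 63.1, 69.4 and 68.7 CPM at 37 DAS (difference −1.2, SE 0.22, adjusted p = 0.0421). Here the days overlapped in the mutant and Col-0 rose. The *MSRB5* call was lost without *slim1-cr* library 3 of 37 DAS (adjusted p = 0.0907), libraries 1 (0.0645) or 3 (0.0569) of 44 DAS, or Col-0 library 3 of 44 DAS (0.075). The *AT1G75280* call was lost without *slim1-cr* libraries 1 (0.104) or 3 (0.293) of 37 DAS or 1 (0.165) or 3 (0.117) of 44 DAS, or without Col-0 libraries 1 (0.118), 2 (0.117) or 3 (0.052) of 37 DAS or 2 (0.195) or 3 (0.239) of 44 DAS.

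**Figure D5:**
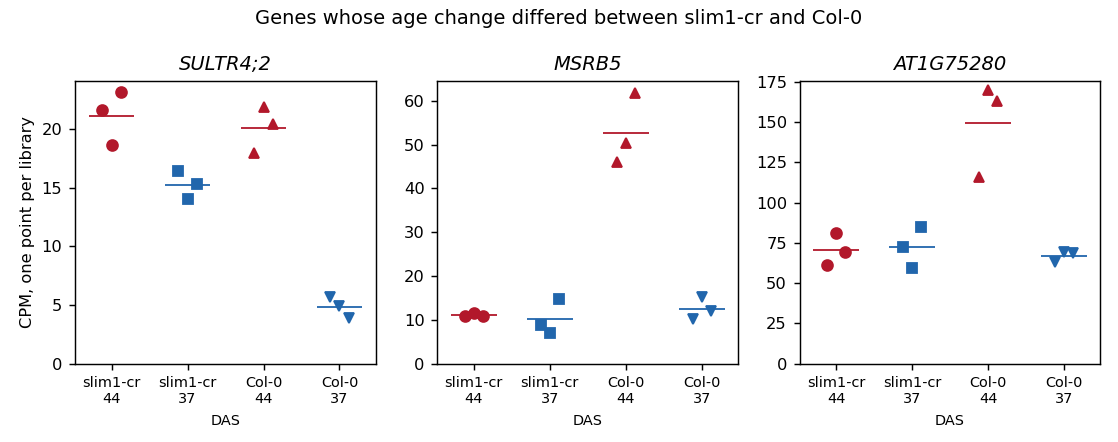
Level of the 3 genes whose age change differed between *slim1-cr* and Col-0, in CPM on the vertical axis, 1 point per library, red for 44 DAS and blue for 37 DAS, with lines for the means. Col-0 was higher at 44 DAS in each panel, whereas the *slim1-cr* days overlap for *MSRB5* and *AT1G75280* and lie close together for *SULTR4;2*.

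The start of *SULTR4;2* at chr3:3972086-3972385, minus strand is printed because the gene gave the steadiest difference. Its window holds a W-box word 27 bases after the start and none of the words AATGTACCT, AATGTATCT, AATGAACCT or AATGAATCT searched for the EIL motif of the study, which stood in 1.48% of all tested promoters. The window of *MSRB5* at chr4:2445525-2445824, plus strand holds a G-box word 44 bases before the start. The study also lists SURE (GAGAC) and TEBS elements as known SLIM1 binding motifs, and neither was searched here. The window of *SULTR4;2* holds ATGAACCT and that of *MSRB5* ATGTATCT, both words of TEBS, printed in lower case. How often TEBS stands in all promoters was not counted. No match to the EIL motif says only that its letters are not in the window.
SULTR4;2: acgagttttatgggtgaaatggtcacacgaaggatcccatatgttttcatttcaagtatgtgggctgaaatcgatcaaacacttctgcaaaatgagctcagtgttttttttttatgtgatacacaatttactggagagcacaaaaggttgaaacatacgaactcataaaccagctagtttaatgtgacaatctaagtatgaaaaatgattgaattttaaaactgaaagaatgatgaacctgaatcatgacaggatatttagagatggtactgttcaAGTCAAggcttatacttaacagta
MSRB5: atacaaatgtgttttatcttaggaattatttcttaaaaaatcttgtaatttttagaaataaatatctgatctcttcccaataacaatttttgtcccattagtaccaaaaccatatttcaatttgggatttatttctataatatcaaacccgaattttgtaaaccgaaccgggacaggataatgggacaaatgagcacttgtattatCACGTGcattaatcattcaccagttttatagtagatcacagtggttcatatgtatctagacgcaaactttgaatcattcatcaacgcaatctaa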

How the data were processed

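Libraries were made strand-specific from polyadenylated rosette RNA (RIN 6.5 to 8.5), and reads cleaned with SOAPnuke were mapped by the authors to TAIR10 (Araport11 genes) in CLC Genomics Workbench. The authors deposited whole-number read counts per gene, 1 column per library, with no replicates pooled, and all values here start from these counts. A deposited table of the same counts divided by DESeq2 1.40.2 size factors was not used. The 39 libraries held 38.4 to 46.2 M counts.

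Counts were tested in R 4.3.3 with edgeR 4.0.16 (default filterByExpr with a minimum count of 10, TMM factors, robust dispersions, quasi-likelihood F test). One mean was fitted for each of 13 groups, which share an estimate of the spread with 26 residual degrees of freedom. Benjamini-Hochberg adjustment ran over the 21040 genes tested, with a threshold of 0.05. The SE is the log2FC divided by the square root of F. The difference between genotypes is the change in *slim1-cr* minus that in Col-0. The counting interval is negligible beside the spread between replicates, where the chi-square of 2 libraries of a day, divided by its degrees of freedom, was 27.1 to 151. The script was tested on simulated data.

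The comparison, the gene lists and the members named were chosen with earlier results of these data known. Named genes were the 10 highest and the 10 lowest log2FC among called genes that have a symbol, average above 1 log2 CPM and do not overlap between the days, up to 4 called members of a list by size of change, members marked as central to a list, called genes of the comparison with Col-0 and *SLIM1*. Some list members that met these rules were left unnamed, among them ones whose call rested on 1 library. Of 965 list entries 939 were kept after matching to the counted genes. Symbols and promoters (250 bases before to 50 after the annotated start) came from the RefSeq assembly TAIR10.1, with windows for 21020 of the tested genes. Alternatives were RLE factors, library size alone, no filter or a minimum count of 50, DESeq2 1.42.0, limma 3.58.1 voom with quality weights, the libraries of the compared groups alone, a replicate block, and leaving out each library.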

Additional observations from a re-analysis of the deposited data

Results flagged for a closer look

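The change with age differed between the genotypes for 3 genes by the test of the difference itself, each with a more negative value in *slim1-cr* than in Col-0. The difference in log2FC was −1.59 for *SULTR4;2*, −1.97 for *MSRB5* and −1.20 for *AT1G75280*. In *MSRB5* and *AT1G75280* the 44 and 37 DAS libraries of *slim1-cr* overlapped, whereas the Col-0 libraries of the 2 days did not. With 3 libraries in each group, no test for a single outlying library was made.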

How the results depend on the processing

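RLE factors, DESeq2, no filter or a stricter filter on low counts and voom kept both counts of genes within 1.5 times of 4510 higher and 4245 lower. Library size alone gave 3105 and 6097. The libraries of the compared groups alone gave 2671 higher and 2245 lower and 0 genes with a different change than in Col-0. In these fits the spread rests on fewer libraries and the filter was run anew, and the part of each was not tested. The numbers of the libraries did not pair them (correlations of deviations 0.11, −0.28 and −0.13). A replicate block over all groups gave 4516 higher and 4342 lower, with 0 and 2 genes more positive and more negative than in Col-0, and a block within the compared groups alone gave 1268, 777, 0 and 0. For genes with a more positive and a more negative change than in Col-0, DESeq2 gave 17 and 20, voom with quality weights 153 and 126, and leaving out the pair of libraries that stood apart 0 and 5. Leaving out 1 library gave 0 to 10 more positive and 1 to 13 more negative, the highest of both without *slim1-cr* library 2 of 44 DAS, 4 and 11 without Col-0 library 1 of 44 DAS, 0 and 5 without *slim1-cr* library 2 of 37 DAS, and 1 and 2 without Col-0 library 3 of 37 DAS. The causes were not tested. Of the 142 genes named 130 were called, and 122 of these kept the call and direction whichever *slim1-cr* library was left out. Directions turned only for genes that had not been called. *WRKY53* had a log2FC of −0.03 with library size alone and −0.09 to 0.43 without 1 library. *MSRB5* had −0.02 with library size alone, −0.08 without the pair that stood apart and −0.09 to 0.48 without 1 library. *AT1G75280* had −0.16 to 0.10 without 1 library. Of the called genes 13 lost the call in the fit of the compared groups alone and 47 with a block in it, 2 with library size alone, 2 without the pair that stood apart, 1 each with RLE factors, voom and no filter, and none with DESeq2 or the stricter filter. Scaling by library size turned 6 list medians that lie between 0 and 0.14 negative, among them those of the photosystem, nitrate, sulfate and flowering lists. At 43.0 to 46.0 M counts a library, the spread between replicates limits precision more than depth does.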

Other observations

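Some groups that the text above does not describe changed little. Of 19 genes of iron and copper supply and superoxide dismutases 2 rose and 3 fell in *slim1-cr* at 44 DAS (median log2FC −0.22), and 4 rose without library 3 of 44 DAS. *FSD3*, given above, was among those that fell. Of 18 wax and cutin genes 2 rose and 2 fell, and the falling count was 0 without library 2 of 44 DAS and 1 without library 2 of 37 DAS or library 1 of 44 DAS, while the rising count was 1 without library 3 of 44 DAS. Of 11 genes of alternative oxidases and mitochondrial stress 2 rose and 1 fell, and none rose without library 2 of 37 DAS or libraries 1 or 2 of 44 DAS and 1 without libraries 1 or 3 of 37 DAS. The falling count was 0 without library 1 of either day and 2 without library 3 of 44 DAS. Of 8 guard cell markers 2 fell, of 8 shoot meristem markers 1 rose and 1 fell, of 5 phloem markers 2 rose, of 3 tested seed markers 1 rose, and none of 3 tested root markers was called.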
